A study of Mus musculus with 10 samples.

Results

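Lysosomes are the acidic compartments in which cells break down proteins, sugars and lipids. The results concern 38 genes of this compartment out of 38887 listed in the deposited table, found by matching Ensembl identifiers to a list of mouse gene symbols. They comprise 20 luminal hydrolases and their cofactors, 5 membrane proteins, 2 transcription factors, and 11 genes of the vacuolar proton pump (V-ATPase) and its regulators. The list was drawn up by function and with earlier results of these data known.

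RNA was sequenced from hematopoietic progenitor cells, the dividing precursors of blood cells, isolated from mouse bone marrow. All mice carried tumours of Lewis lung carcinoma, a transplantable mouse line, and had been dosed for 2 weeks. The 5 vehicle libraries came from mice given vehicle alone, which the sample titles name untreated, and the 5 CK2i libraries from mice given BMS-595 at 60 mg/kg, an inhibitor of the protein kinase CK2. The sources used here do not give the host strain, genotype or age, nor whether each library came from a separate mouse. The p-values therefore reflect only how these libraries varied, and part of that variation may be technical. No mice without tumours were analysed here. The comparison of CK2i with vehicle asks how the inhibitor treatment was accompanied by changes in the transcripts of progenitors.

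Hydrolases reach the lysosome as inactive precursors and become active at low pH. The V-ATPase supplies that acidity: its V1 sector hydrolyses ATP outside the organelle and drives rotation of its V0 sector, which carries protons across the membrane. The sectors come apart and rejoin, and the rabconnectins Dmxl1 and Dmxl2 with their partner Wdr7 assist the rejoining. The transcription factors Tfeb and Tfe3 bind E-box motifs in promoters of many lysosomal genes, and their entry into the nucleus is controlled mainly by phosphorylation. In early myeloid cells acid hydrolases are also packed into primary granules.

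The binding motif of Tfeb and Tfe3 has the core CACGTG, a palindrome that reads the same on both strands. Promoter windows from RefSeq on GRCm38.p6, from 250 bases before to 50 bases after a transcription start, were matched by symbol for 31 of the 38 genes. The stretches that follow are shown because they contrast a gene with 4 such cores, genes with 1 core in the part shown, and Dmxl2, the gene with the largest measured difference, with none in its window. Each reads 5′ to 3′ on the strand of the gene, and capitals mark CACGTG. For Gla, Atp6v1a, Mcoln1 and Ctsd 30 bases around 1 core are given, and for Lamp1 and Dmxl2 the 100 bases before the start. The stretches of Gla, Mcoln1 and Ctsd overlap an exon annotated in GENCODE. Those of Mcoln1, Ctsd and Atp6v1a lie within the bounds of the gene annotated there. The positions are chr8:13159061-13159160 on the plus strand for Lamp1, chr8:3500462-3500491 on the plus strand for Mcoln1, chr7:142387908-142387937 on the minus strand for Ctsd, chrX:134601215-134601244 on the minus strand for Gla, chr16:44139373-44139402 on the minus strand for Atp6v1a and chr9:54501627-54501726 on the minus strand for Dmxl2.
Lamp1: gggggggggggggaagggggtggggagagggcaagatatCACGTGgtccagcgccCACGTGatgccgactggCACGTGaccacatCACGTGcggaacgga
Mcoln1: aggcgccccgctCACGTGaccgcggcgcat
Ctsd: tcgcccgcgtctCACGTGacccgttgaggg
Gla: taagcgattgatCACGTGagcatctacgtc
Atp6v1a: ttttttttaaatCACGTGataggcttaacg
Dmxl2: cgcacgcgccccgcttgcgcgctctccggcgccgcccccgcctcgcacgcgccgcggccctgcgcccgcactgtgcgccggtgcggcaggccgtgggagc

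CACGTG stood in a window of 11 of the 31 genes (35.5%), against 11.7% of the 10407 tested genes with a window and 8.09% of all 27025 genes with a window. A gene with several windows counted if any of them held the motif. The longer form TCACGTG, searched on both strands and always overlapping the core, stood in a window of 10 genes (32.3%), against 6.86% of tested genes. Among the 12 lysosomal genes that rose in CK2i libraries, 2 (16.7%) held the core, Gla and Atp6v1a. Among the 19 with a window that did not pass the test, 9 (47.4%) held it, namely Ctsd, Ctsl, Ctsa, Gaa, Glb1, Lamp1, Mcoln1, Atp6v0b and Atp6v0d1. Over all genes tested the core stood in 10.5% of those called higher and 11.7% of the others. TCATGTG, a variant searched on both strands that does not overlap the core, stood in a window of 5 of 31 genes (16.1%), against 2.81% of tested genes. Its holders were Gla, Grn and Atp6v0c, which rose, and Ctss and Ctsa, which did not pass. That is 3 of the 12 genes that rose (25%) and 2 of the 19 that did not pass (10.5%). Over all genes tested TCATGTG stood in 3.75% of those called higher and 2.74% of the others. These counts describe letters in a window and do not locate binding.

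Of the 38 lysosomal genes, 12 were higher in CK2i libraries, none was lower and 26 did not pass the test (edgeR's quasi-likelihood test on estimated counts, Benjamini-Hochberg adjusted p under 0.05 over 14346 genes). The background was 6.43% of all tested genes called higher and 6.76% called lower. The list was drawn up with earlier results of these data known, so its contrast with the background is a description and not a test. Of 91 further lysosomal genes tested, 10 were higher and 6 lower, with a median log2 difference of 0.03. At an unadjusted p under 0.05, 20 of the 38 genes passed, of which 1, Wdr7, had a log2 difference below 0. Over all genes tested 34.6% passed so in either direction and 16.6% with a lower value. DESeq2, run as an alternative, also called 0 of the 38 lower, against 10.2% of all genes. The differences were small: log2 values ran from -0.13 to 0.84, with a median of 0.16 beside 0.00 over all genes tested. In 10 of the 38 genes the lowest CK2i library exceeded the highest vehicle library in CPM (counts scaled to library size), against 5.18% of genes tested. By group, 6 of 20 hydrolases and cofactors rose (median log2 difference 0.24), 2 of 5 membrane proteins (0.25), 1 of 2 transcription factors (0.17), 2 of 8 V-ATPase subunits (0.08) and 1 of 3 pump regulators (0.05). In bulk samples, fewer cells of a type and less RNA per cell cannot be told apart.

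**Figure D1:**
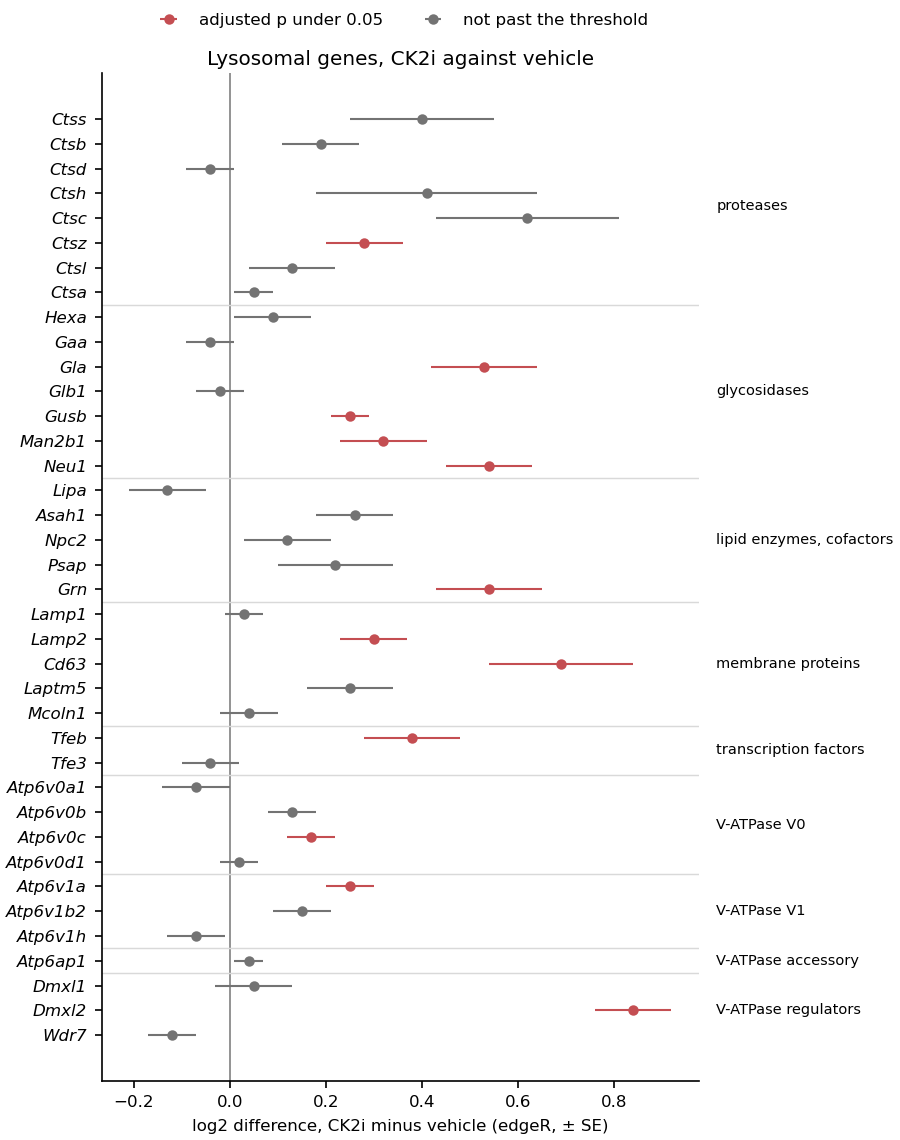
Log2 difference of CK2i minus vehicle (x axis) with its standard error for each of the 38 genes, grouped by role, from the edgeR fit over 5 libraries per group; red marks an adjusted p under 0.05. The 12 red genes all lie to the right of 0, led by Dmxl2 at 0.84, and the V-ATPase subunits span -0.07 to 0.25.

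Library totals ran from 34127674 to 43636152 estimated counts, and the lowest count of a lysosomal gene in any library was 258. CK2i libraries 2 and 5 stood apart on the first principal component over all genes, which held 40.8% of the variance, at 43.26 and 43.68. The other 3 CK2i libraries lay at -4.1 to 12.48 and the vehicle libraries at -29.62 to -9.37. Without those 2 libraries 2 of the 38 genes passed, Dmxl2 and Neu1, against a background of 0.501% of genes called higher, so values with and without them are given for each of the 12. The count was 5 without vehicle library 1, 4 or 5 or CK2i library 5, against backgrounds of 1.26%, 1.64%, 1.7% and 1.33% of genes called higher. It was 7 without vehicle library 3 or CK2i library 2, against 2.44% and 1.84%. Only Gusb, Neu1, Grn and Dmxl2 passed in each of the 10 fits that left out 1 library, against 2.54% of all genes tested.

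The label of progenitor cells was checked against 7 stem and progenitor markers, with summed levels of 179.4 to 225.1 FPKM in vehicle and 189 to 214.7 FPKM in CK2i libraries. None rose and 2 fell, Mycn and Kit, a receptor of stem and progenitor cells, which lay at 43.6 to 59.5 FPKM in the 10 libraries. The background for each marker list here was 6.43% of all genes tested called higher and 6.76% called lower. Transcripts of other lineages were also present. Of 5 B and plasma cell markers 4 were tested and 1 fell (414.1 to 562.9 FPKM summed in vehicle, 218.3 to 359.2 FPKM in CK2i), although Ebf1 was under 1 FPKM. Of 4 T and NK cell markers 2 were tested and none passed (38.9 to 75.6 and 54.2 to 104.3 FPKM, with Cd3e and Cd3d under 1 FPKM). Among 6 stromal and endothelial markers 1 fell (48.96 to 69.2 and 41.1 to 55.9 FPKM). All 6 primary granule genes rose, at 1916 to 3935 FPKM summed in vehicle and 3618 to 5963 FPKM in CK2i libraries. Of 13 monocyte and macrophage markers 3 rose (320.3 to 586.7 and 475 to 1165 FPKM), as did 3 of 9 late neutrophil markers (43.8 to 133.6 and 72.4 to 320.7 FPKM) and 4 of 6 erythroid markers (268.5 to 429.7 and 415.6 to 631.1 FPKM). Of 7 megakaryocyte and platelet markers 3 fell (2273 to 3728 and 1212 to 2724 FPKM). Without CK2i 2 and 5, none of the primary granule, monocyte, late neutrophil, megakaryocyte, stromal or progenitor markers passed, while 2 erythroid markers and 1 B and plasma cell marker did. The background of that fit was 0.501% of genes called higher and 0.699% called lower. CK2i libraries 2 and 5 had the highest sums for primary granule, late neutrophil, monocyte, and T and NK cell genes. All 5 osteoclast markers were under 1 FPKM in every library. The part of these shifts in the lysosomal results was not tested.

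Among the 8 proteases 1 rose, Ctsz, and 7 did not pass, with a median log2 difference of 0.24. Cathepsin Z, a carboxypeptidase (ENSMUSG00000016256, chr2:174427493-174439039 in GRCm38), was at 103, 109, 94.0, 107 and 87.8 FPKM in vehicle libraries 1 to 5 and 124, 131, 113, 110.2 and 133 FPKM in CK2i libraries 1 to 5. Every CK2i library was above every vehicle library, by a narrow margin for CK2i 4. Its mean went from 100.2 ± 8.99 to 122 ± 10.3 FPKM (SD, n = 5 each), which is 0.28 ± 0.08 (SE) on the log2 scale (edgeR adjusted p = 0.0381). It passed in 3 of 10 leave-one-out fits and was at 0.19 (edgeR adjusted p = 0.205) without CK2i 2 and 5. Nelfcd overlaps Ctsz on the opposite strand at a mean of 38.01 FPKM, and the sources used here do not say whether counting used strand.

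Cathepsin D, an aspartic protease, had the highest mean of the 38 transcripts per length in vehicle libraries. That mean was 169.3 FPKM, with Psap nearly equal at 169.1 FPKM. Cathepsin D was at 169, 161, 167, 168 and 182 FPKM in vehicle and 164, 150.4, 170.5, 174 and 172 FPKM in CK2i libraries. The groups overlapped, and the log2 difference was -0.04 ± 0.05 (edgeR adjusted p = 0.612). Cathepsin B, a cysteine protease, was at 32.8, 33.8, 30.5, 34.5 and 32.2 FPKM in vehicle and 33.6, 40.9, 31.9, 38.4 and 43.1 FPKM in CK2i libraries. CK2i 2, 4 and 5 were above all vehicle libraries and the other 2 within their range, for a log2 difference of 0.19 ± 0.08 (edgeR adjusted p = 0.125). Cathepsin C, which activates the serine proteases of myeloid granules, had the largest log2 difference of the proteases, 0.62 ± 0.19, and missed the threshold (edgeR adjusted p = 0.0507). It lay at 19.8 to 30.97 FPKM in vehicle libraries and at 52.3 and 52.4 FPKM in CK2i 2 and 5, against 28.6 to 32.7 FPKM in the other 3. Ctss and Ctsh, cysteine proteases, stood at 0.40 ± 0.15 and 0.41 ± 0.23 on the log2 scale (edgeR adjusted p = 0.0883 and 0.224), and Ctsl and Ctsa at 0.13 ± 0.09 and 0.05 ± 0.04 (edgeR adjusted p = 0.335 and 0.372).

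Of 7 glycosidases, which cleave sugars from glycans and glycolipids, 4 rose and 3 did not pass. Neuraminidase 1 (Neu1, ENSMUSG00000007038, chr17:34931253-34935953), which removes sialic acid, was at 9.38, 10.5, 9.73, 10.3 and 10.4 FPKM in vehicle and 13.8, 16.2, 11.4, 12.9 and 17.6 FPKM in CK2i libraries. The groups did not overlap, and CK2i 3 was the closest to vehicle. The mean went from 10.1 ± 0.487 to 14.4 ± 2.50 FPKM, a log2 difference of 0.54 ± 0.09 (edgeR adjusted p = 0.0115), and it was 0.39 without CK2i 2 and 5 (edgeR adjusted p = 0.0281).

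Beta-glucuronidase (Gusb, ENSMUSG00000025534, chr5:129989011-130003049) was the steadiest of the genes that rose: 57.1, 58.0, 55.2, 54.1 and 54.0 FPKM in vehicle and 67.9, 69.0, 62.5, 64.7 and 67.5 FPKM in CK2i libraries. No values overlapped between groups, and CK2i 2 and 5 did not stand apart from CK2i 1. The log2 difference was 0.25 ± 0.04 (edgeR adjusted p = 0.012), from a mean of 55.7 ± 1.80 to 66.3 ± 2.67 FPKM, and 0.21 without CK2i 2 and 5 (edgeR adjusted p = 0.0603). Alpha-galactosidase A (Gla, ENSMUSG00000031266, chrX:134588149-134601125), whose promoter stretch is printed above, was at 5.12, 5.46, 5.83, 5.40 and 4.20 FPKM in vehicle and 7.23, 8.12, 6.52, 7.33 and 8.32 FPKM in CK2i libraries. Again no value of one group fell within the other, and the log2 difference was 0.53 ± 0.11 (edgeR adjusted p = 0.0218), or 0.38 without CK2i 2 and 5 (edgeR adjusted p = 0.106).

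Lysosomal alpha-mannosidase (Man2b1, ENSMUSG00000005142, chr8:85083270-85098282) was at 33.5, 39.7, 38.1, 36.9 and 28.5 FPKM in vehicle and 42.6, 46.5, 39.6, 42.4 and 49.9 FPKM in CK2i libraries. CK2i 3 lay just under vehicle 2, and the other 4 CK2i libraries were above all vehicle libraries. The log2 difference of 0.32 ± 0.09 (edgeR adjusted p = 0.046) passed in 2 of 10 leave-one-out fits and was 0.22 without CK2i 2 and 5 (edgeR adjusted p = 0.245). Hexa, a subunit of beta-hexosaminidase, Gaa, the acid alpha-glucosidase that degrades glycogen, and Glb1, beta-galactosidase, had log2 differences of 0.09 ± 0.08, -0.04 ± 0.05 and -0.02 ± 0.05 (edgeR adjusted p = 0.418, 0.54 and 0.837).

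Among the 5 genes of lipid degradation and cofactors 1 rose, progranulin (Grn, ENSMUSG00000034708, chr11:102430315-102437048), a precursor that is cut into granulins in the lysosome. It was at 31.1, 40.5, 40.0, 37.9 and 32.5 FPKM in vehicle and 48.5, 57.4, 48.8, 45.3 and 62.8 FPKM in CK2i libraries. Every CK2i library was above every vehicle library, with CK2i 2 and 5 the highest. The mean went from 36.4 ± 4.34 to 52.5 ± 7.25 FPKM, a log2 difference of 0.54 ± 0.11 (edgeR adjusted p = 0.018), or 0.38 without CK2i 2 and 5 (edgeR adjusted p = 0.0619).

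Prosaposin (Psap), the precursor of the saposins that assist sphingolipid hydrolysis, was at 148, 191, 183, 178 and 145 FPKM in vehicle and 173, 213, 173, 174 and 253 FPKM in CK2i libraries. CK2i 2 and 5 were above all vehicle libraries and the other 3 within their range, and the log2 difference was 0.22 ± 0.12 (edgeR adjusted p = 0.228). The ceramidase gene Asah1 was above every vehicle library in all 5 CK2i libraries by FPKM (21.6 to 26.6 and 27.4 to 37.3 FPKM) but in 2 of 5 by CPM, and its log2 difference of 0.26 ± 0.08 did not pass (edgeR adjusted p = 0.0616). The acid lipase gene Lipa had the lowest log2 difference of the 38 genes, -0.13 ± 0.08 (edgeR adjusted p = 0.264), and the cholesterol carrier Npc2 was at 0.12 ± 0.09 (edgeR adjusted p = 0.334).

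Of the 5 membrane proteins, Cd63 and Lamp2 rose. Cd63 (ENSMUSG00000025351, chr10:128900989-128912822), a tetraspanin of late endosomes, lysosomes and myeloid granules, was at 40.2, 42.7, 41.8, 35.1 and 30.3 FPKM in vehicle and 56.7, 74.7, 44.8, 57.2 and 73.6 FPKM in CK2i libraries. The groups did not overlap, but CK2i 3 was 44.8 against 42.7 FPKM in vehicle 2, and CK2i 2 and 5 were the highest. The log2 difference was 0.69 ± 0.15 (edgeR adjusted p = 0.0213), or 0.46 without CK2i 2 and 5 (edgeR adjusted p = 0.0951). A processed copy of the gene, Cd63-ps, had at most 13 counts in a library.

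Lamp2 and Lamp1 encode the main glycoproteins of the lysosomal membrane. Lamp2 (ENSMUSG00000016534, chrX:38401357-38456454) was at 53.2, 50.3, 52.1, 50.9 and 49.6 FPKM in vehicle and 62.6, 69.0, 55.8, 60.1 and 71.2 FPKM in CK2i libraries. The groups did not overlap, and the log2 difference was 0.30 ± 0.07 (edgeR adjusted p = 0.0254), or 0.18 without CK2i 2 and 5 (edgeR adjusted p = 0.0673). Lamp1, with 4 CACGTG cores in the stretch printed above, was at 132, 134, 135, 138 and 134 FPKM in vehicle and 131, 135, 132, 139.6 and 150.5 FPKM in CK2i libraries. These groups overlapped, with a log2 difference of 0.03 ± 0.04 (edgeR adjusted p = 0.653). Within a library the ratio of Lamp2 to Lamp1 in FPKM went from 0.381 ± 0.0142 to 0.463 ± 0.0359 (SD, n = 5 each). The ratios given here and for other pairs of genes were chosen after their values were seen and are descriptions with no test.

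The calcium channel gene Mcoln1, a known target of Tfeb, was at 9.97, 11.7, 12.8, 11.5 and 13.5 FPKM in vehicle and 13.5, 12.8, 12.3, 12.3 and 13.4 FPKM in CK2i libraries. All CK2i libraries lay within the vehicle range, and the log2 difference was 0.04 ± 0.06 (edgeR adjusted p = 0.683). Laptm5, a lysosomal protein of blood cells, was at 0.25 ± 0.09 (edgeR adjusted p = 0.0832).

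**Figure D2:**
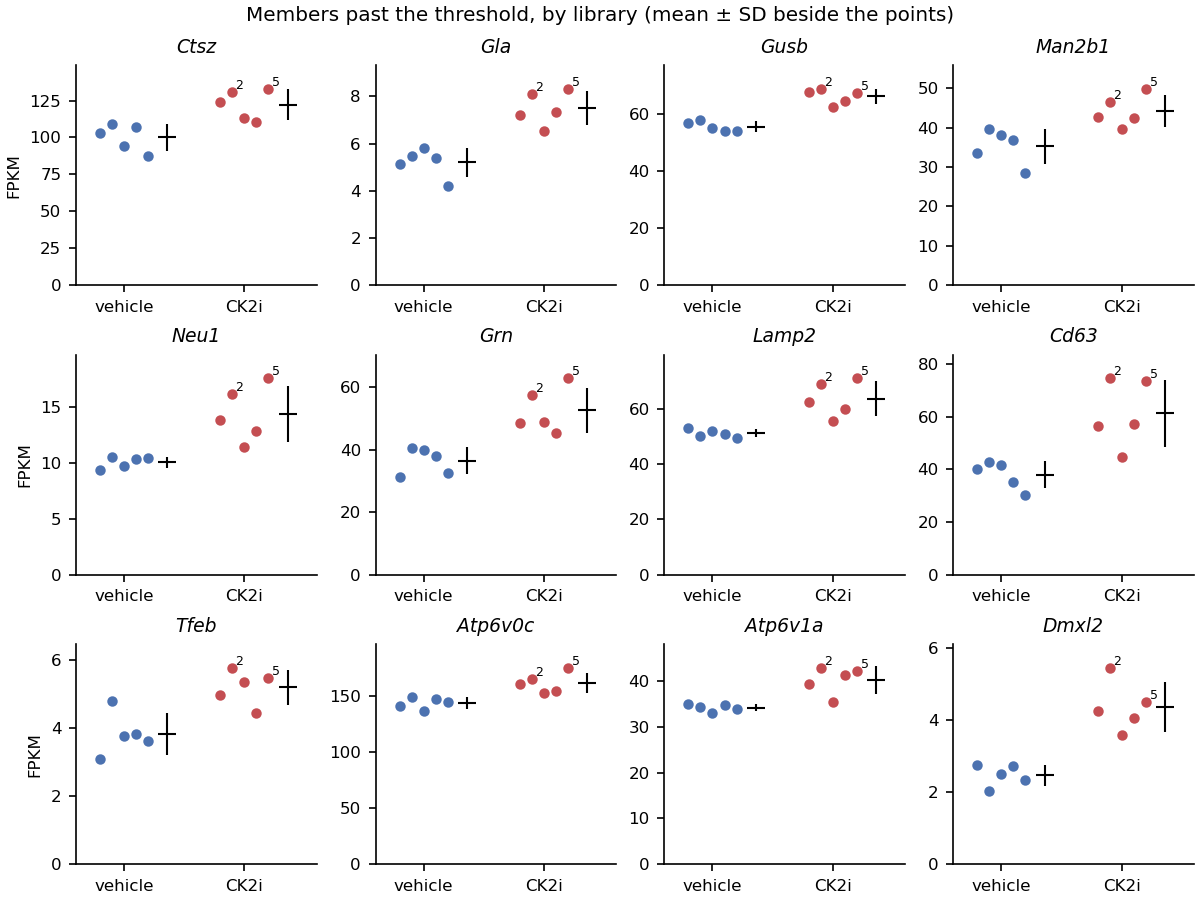
FPKM (y axis from 0, a scale of its own in each panel) in each of the 5 vehicle (blue) and 5 CK2i (red) libraries, in order of library number, for the 12 genes that rose; crosses give the mean and bars the SD, and CK2i 2 and 5 are numbered. In 10 of the 12 panels no CK2i library overlaps a vehicle library, and Man2b1 and Tfeb are the exceptions. The panels show genes that passed the test on these libraries, so this separation is no further evidence. All CK2i libraries exceeded all vehicle libraries in CPM in 5.18% of genes tested.

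Tfeb rose and Tfe3 did not pass. Tfeb (ENSMUSG00000023990, chr17:47737030-47792419) was at 3.10, 4.79, 3.77, 3.82 and 3.63 FPKM in vehicle and 4.96, 5.77, 5.34, 4.45 and 5.46 FPKM in CK2i libraries. CK2i 4 lay under vehicle 2, and the other 4 CK2i libraries were above all vehicle libraries. The log2 difference was 0.38 ± 0.10 (edgeR adjusted p = 0.0406), passed in 3 of 10 leave-one-out fits and was 0.28 without CK2i 2 and 5 (edgeR adjusted p = 0.222). Tfe3 was at 11.1, 10.7, 11.6, 11.0 and 11.5 FPKM in vehicle and 10.1, 9.71, 12.0, 10.3 and 11.6 FPKM in CK2i libraries, with overlapping groups and a log2 difference of -0.04 ± 0.06 (edgeR adjusted p = 0.647). The ratio of Tfeb to Tfe3 went from 0.343 ± 0.0638 to 0.487 ± 0.0641 (SD, n = 5 each), and its groups overlapped. Transcript levels do not report where these proteins are in the cell.

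In the V-ATPase, 2 of 8 subunits rose. Atp6v1a (ENSMUSG00000052459, chr16:44085402-44139705), the catalytic A subunit of V1 that hydrolyses ATP, was at 35.0, 34.3, 33.0, 34.9 and 34.01 FPKM in vehicle and 39.3, 42.9, 35.4, 41.3 and 42.2 FPKM in CK2i libraries. Vehicle and CK2i libraries did not overlap, with CK2i 3 next to the vehicle range. The log2 difference was 0.25 ± 0.05 (edgeR adjusted p = 0.0224), or 0.16 without CK2i 2 and 5 (edgeR adjusted p = 0.0666).

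Atp6v0c (ENSMUSG00000024121, chr17:24163866-24169702), the subunit that forms most of the proton-carrying ring, was the most abundant pump transcript of the list per length, at 141, 149, 137, 148 and 145 FPKM in vehicle and 161, 166, 153, 155 and 176 FPKM in CK2i libraries. The groups did not overlap, and the log2 difference was 0.17 ± 0.05 (edgeR adjusted p = 0.0393), the smallest of the 12 that passed. It passed in 2 of 10 leave-one-out fits and was 0.11 without CK2i 2 and 5 (edgeR adjusted p = 0.176). Atp6v0a1, an a subunit isoform that forms the proton half-channels, was at 26.9, 24.4, 30.9, 28.5 and 33.9 FPKM in vehicle and 29.1, 33.0, 30.3, 31.2 and 26.0 FPKM in CK2i libraries. All CK2i libraries lay within the vehicle range, and the sign depended on the quantity: the mean FPKM was 28.9 ± 3.65 and 29.9 ± 2.62, while the log2 difference of the counts was -0.07 ± 0.07 (edgeR adjusted p = 0.546).

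The other 5 subunits did not pass. Atp6v1b2, the B subunit that pairs with A, and Atp6v0b, a second ring protein, had log2 differences of 0.15 ± 0.06 and 0.13 ± 0.05 (edgeR adjusted p = 0.0876 and 0.108). Atp6v0d1, which joins the ring to the central stalk, Atp6v1h, which inhibits ATP hydrolysis by free V1, and the accessory Atp6ap1 were at 0.02 ± 0.04, -0.07 ± 0.06 and 0.04 ± 0.03 (edgeR adjusted p = 0.731, 0.453 and 0.417).

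**Figure D3:**
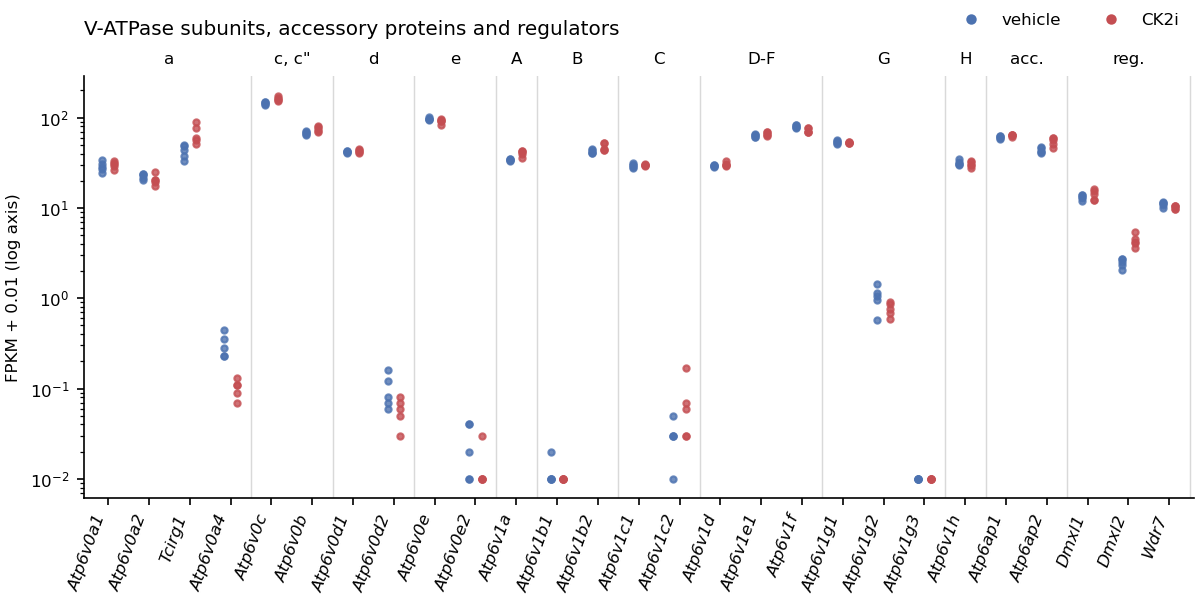
FPKM + 0.01 (log y axis) in each vehicle (blue) and CK2i (red) library for the V-ATPase genes, ordered by subunit (letters above: lower case for V0, capitals for V1), accessory proteins (acc.) and regulators (reg.), including genes outside the 38. Dmxl2 is the lowest of the regulators, at 2.02 to 2.74 FPKM in vehicle and 3.58 to 5.44 FPKM in CK2i libraries, and Atp6v0a4, Atp6v0d2, Atp6v0e2, Atp6v1b1, Atp6v1c2 and Atp6v1g3 lie under 1 FPKM.

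Of the 3 pump regulators Dmxl2 rose, and Dmxl1 and Wdr7 did not pass. Dmxl2 (rabconnectin-3α, ENSMUSG00000041268, chr9:54365158-54501626) was at 2.74, 2.02, 2.49, 2.72 and 2.33 FPKM in vehicle and 4.23, 5.44, 3.58, 4.04 and 4.50 FPKM in CK2i libraries. Every CK2i library was above every vehicle library. In CPM, CK2i 2 and 5 were the highest, at 33.7 and 31.4. The other 3 CK2i libraries had 25.7 to 27.2 CPM, and vehicle libraries had 14.6 to 17.4 CPM. It was the lowest of the 38 transcripts per length in vehicle libraries. The mean went from 2.46 ± 0.299 to 4.36 ± 0.692 FPKM, a log2 difference of 0.84 ± 0.08 (1.79-fold, edgeR adjusted p = 0.00203). It was 0.71 without CK2i 2 and 5 (edgeR adjusted p = 0.00232), and 0.66 with 1 surrogate variable in the fit (edgeR adjusted p = 0.0076), where no other gene of the 38 passed and 0.223% of all genes were called higher.

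Its paralog Dmxl1 was at 12.9, 12.0, 14.1, 13.1 and 13.9 FPKM in vehicle and 12.1, 16.1, 12.2, 14.2 and 15.2 FPKM in CK2i libraries. The groups overlapped, with a log2 difference of 0.05 ± 0.08 (edgeR adjusted p = 0.698). Wdr7 (rabconnectin-3β), which binds Dmxl proteins, was at 11.4, 9.96, 11.5, 10.7 and 11.5 FPKM in vehicle and 9.78, 10.4, 9.79, 10.6 and 10.4 FPKM in CK2i libraries. CK2i 1 and 3 were below all vehicle libraries and the others within their range, and the log2 difference of -0.12 ± 0.05 did not pass (edgeR adjusted p = 0.127). Txnl1 overlaps Wdr7 on the opposite strand at a mean of 74.9 FPKM. Within libraries the FPKM ratio of Dmxl2 to Dmxl1 went from 0.186 ± 0.0215 to 0.312 ± 0.0288 and that of Dmxl2 to Wdr7 from 0.223 ± 0.0233 to 0.427 ± 0.0617 (SD, n = 5 each), as descriptions with no test.

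Across libraries the lysosomal genes were highest in CK2i 2 and 5. The median over the 38 genes of log2 CPM, relative to the vehicle mean, was 0.27 in CK2i 2 and 0.31 in CK2i 5, and 0.07, 0.06 and 0.07 in CK2i 1, 3 and 4. Vehicle libraries lay at -0.07 to 0.06, so the other 3 CK2i libraries were at or just past the upper end of the vehicle range. For the hydrolases the medians of CK2i libraries 1 to 5 were 0.11, 0.32, 0.08, 0.13 and 0.41, against -0.14 to 0.11 in vehicle libraries. For the membrane proteins they were 0.19, 0.39, 0.12, 0.06 and 0.44, against -0.05 to 0.13. For the V-ATPase genes they were 0.04, 0.20, 0.04, 0.02 and 0.17, against -0.04 to 0.02. Within the vehicle range of their group lay CK2i 1 and 3 for hydrolases, 3 and 4 for membrane proteins and 4 for V-ATPase genes. The medians over all genes were -0.01 to 0.01.

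**Figure D4:**
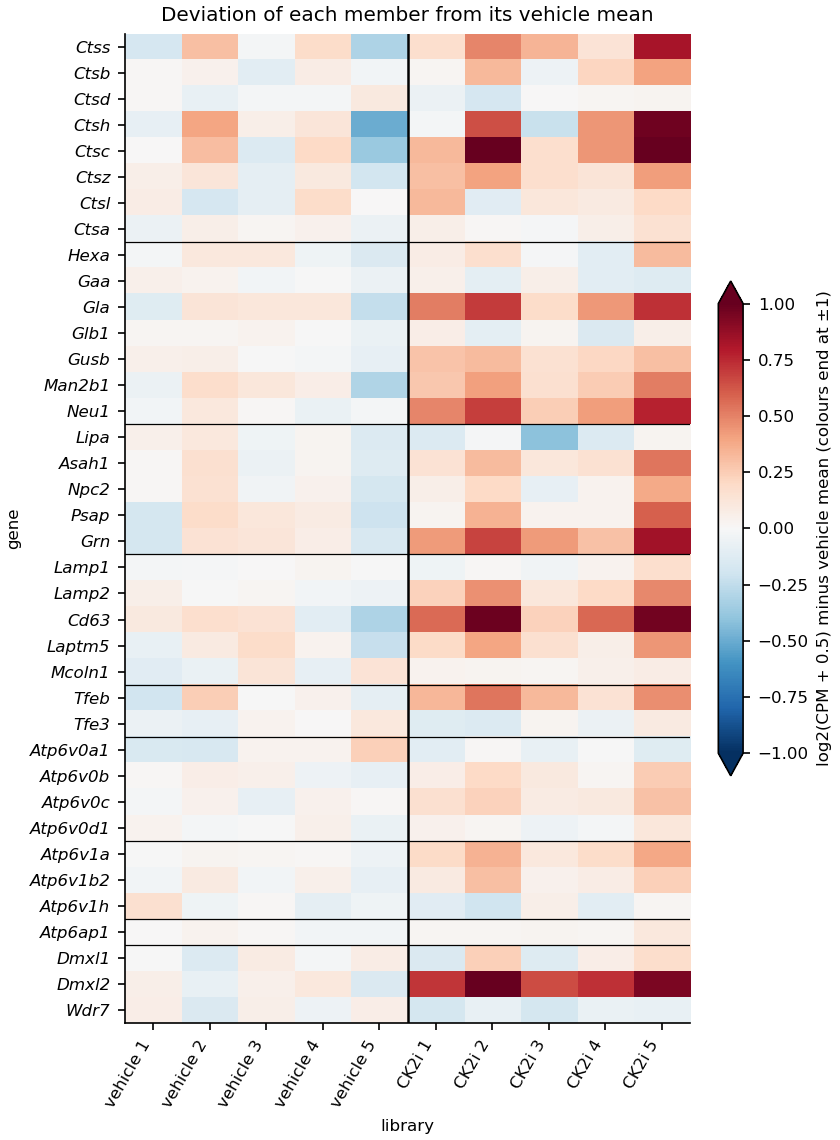
Difference of log2(CPM + 0.5) from the vehicle mean of each gene (colour, red above and blue below, ending at ±1) for the 38 genes (rows, by role) in the 10 libraries (columns). Dmxl2 is red in all 5 CK2i libraries, and Ctsc, Ctsh, Ctss and Cd63 are darkest in CK2i 2 and 5.

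**Figure D5:**
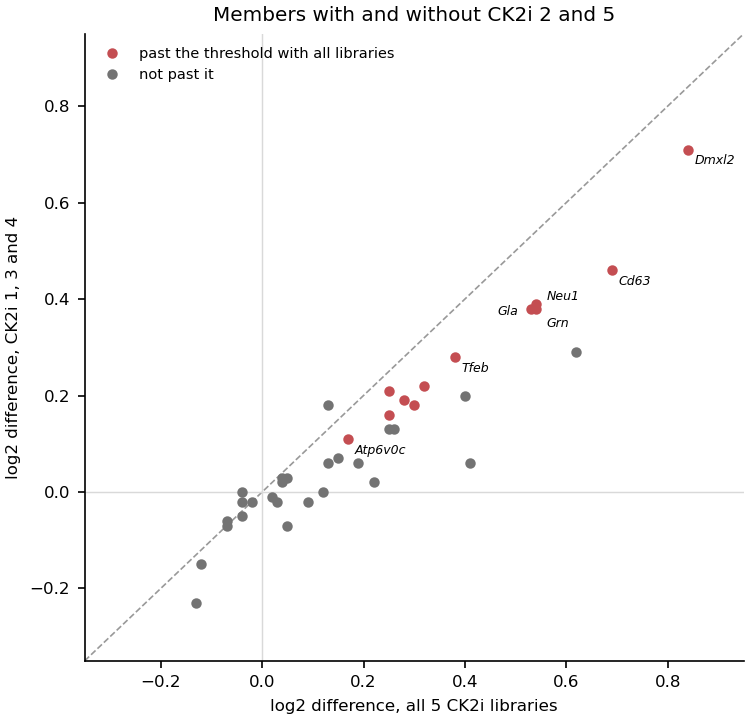
Log2 difference of CK2i minus vehicle in the fit of all 10 libraries (x axis) and in the fit without CK2i 2 and 5 (y axis) for each of the 38 genes; red marks the 12 genes that passed with all libraries, and the dashed line marks equal values. Dmxl2, at 0.84 and 0.71, and Neu1, at 0.54 and 0.39, passed in both fits, and all 12 red genes lie below the dashed line.

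A further 99 lysosomal genes were listed by function, of which 91 were tested. Of these 10 rose and 6 fell, with a median log2 difference of 0.03. Over all genes tested 6.43% were called higher and 6.76% lower, which is the background for these counts and for each list below. Without CK2i 2 and 5, 1 was called higher, Rragd, and 1 lower, Atp6v0a4, against 0.501% and 0.699% of all genes tested. The other 14 did not pass, with log2 values there of 0.65 for Acp5, 0.42 for Laptm4b, 0.22 for Sort1, 0.21 for Atp6ap2, 0.61 for Tfec, 0.09 for Mtor and 0.11 for Rptor among those that rose and -0.35 for Smpd1, -0.16 for Tpp1, -0.23 for Aga, -0.32 for Igf2r and -0.24 for Rragb among those that fell (edgeR adjusted p from 0.066 to 0.231). Among 34 other hydrolases tested 2 rose and 3 fell. The arylsulfatase gene Arsb went from 7.98 ± 1.30 to 16.2 ± 6.41 FPKM (log2 difference 1.02 ± 0.26, edgeR adjusted p = 0.0322) and was at 0.57 without CK2i 2 and 5 (edgeR adjusted p = 0.155). Acp5, an acid phosphatase, rose by 0.66 ± 0.14 on the log2 scale (edgeR adjusted p = 0.0193). The acid sphingomyelinase gene Smpd1 went from 19.98 ± 1.62 to 14.8 ± 1.92 FPKM (log2 difference -0.44 ± 0.09, edgeR adjusted p = 0.0184), and the peptidase Tpp1 and the glycosylasparaginase Aga had log2 differences of -0.15 ± 0.04 and -0.24 ± 0.05 (edgeR adjusted p = 0.0337 and 0.0224).

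Among 25 other membrane and sorting genes 2 rose and 1 fell. Sortilin (Sort1) and the mannose 6-phosphate receptor Igf2r both carry hydrolases from the Golgi apparatus. Sort1 went from 28.9 ± 2.59 to 35.3 ± 2.94 FPKM (log2 difference 0.31 ± 0.07, edgeR adjusted p = 0.0287) and Igf2r from 9.51 ± 0.757 to 7.30 ± 0.786 FPKM (-0.40 ± 0.08, edgeR adjusted p = 0.0187). The FPKM ratio of Sort1 to Igf2r went from 3.07 ± 0.427 to 4.91 ± 0.912 (SD, n = 5 each). Laptm4b also rose, by 0.56 ± 0.13 on the log2 scale (edgeR adjusted p = 0.0241).

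Among 16 other V-ATPase genes tested 2 rose and 1 fell. Tcirg1, the a3 isoform known for its role in osteoclasts, was at 33.0, 49.4, 48.6, 43.7 and 37.5 FPKM in vehicle and 56.2, 77.2, 59.0, 51.1 and 89.0 FPKM in CK2i libraries. The groups did not overlap, CK2i 2 and 5 were the highest, and the log2 difference was 0.63 ± 0.15 (edgeR adjusted p = 0.0265), or 0.39 without CK2i 2 and 5 (edgeR adjusted p = 0.116). The ratio of Tcirg1 to Atp6v0a1, the a1 isoform, went from 1.49 ± 0.356 to 2.26 ± 0.699 (SD, n = 5 each), with overlapping groups. Atp6ap2, the accessory subunit also known as the prorenin receptor, rose by 0.31 ± 0.07 (edgeR adjusted p = 0.0285). Several other isoforms lay at or near 0: Atp6v1b1 reached at most 0.01 FPKM and Atp6v0d2 at most 0.15 FPKM in a library, and Atp6v1g3 was listed at 0 in all 10. Atp6v0a4, an isoform typical of kidney, fell from 0.296 ± 0.0896 to 0.0920 ± 0.0228 FPKM at 6 to 52 counts per library (log2 difference -1.83 ± 0.29, edgeR adjusted p = 0.00888), and stood at -1.78 without CK2i 2 and 5 (edgeR adjusted p = 0.0499).

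Among 16 genes of the Tfeb family and of nutrient sensing at the lysosome 4 rose and 1 fell. Tfec, a relative of Tfeb expressed in myeloid cells, went from 15.2 ± 2.73 to 26.7 ± 4.85 FPKM (log2 difference 0.81 ± 0.15, edgeR adjusted p = 0.015). Rragd, a small GTPase that recruits mTORC1, the growth-controlling kinase complex, went from 0.0700 ± 0.0200 to 0.248 ± 0.0669 FPKM at 6 to 42 counts per library (log2 difference 2.05 ± 0.25, edgeR adjusted p = 0.00392), and stood at 1.94 without CK2i 2 and 5 (edgeR adjusted p = 0.0237). The mTORC1 genes Mtor and Rptor rose by 0.15 ± 0.04 and 0.19 ± 0.05 on the log2 scale (edgeR adjusted p = 0.0426 and 0.0416), and Rragb had a log2 difference of -0.29 ± 0.08 (edgeR adjusted p = 0.0452).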

How the data were processed

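RNA from 5 vehicle and 5 CK2i samples was sequenced as 75 base paired reads from a stranded total RNA kit, per the labels' protocols. The deposited table holds estimated counts and FPKM per gene. Per the submitters' processing notes, Bowtie2, RSEM 1.2.31, the build mm10 and DESeq2 were used. The deposited estimated counts are whole numbers and sum to 34127674 to 43636152 per library. The deposited FPKM values are scaled by the authors for transcript length and depth. The strand setting is not given in the sources used here. It bears on 11 of the 38 genes, which overlap a gene on the opposite strand.

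Of 38887 identifiers, 37570 matched GENCODE M21 and 2 empty lines were left out. The members and lists were chosen with earlier results of these data known. Counts were tested with edgeR 4.0.16 in R 4.3.3 (quasi-likelihood test, TMM scaling, filterByExpr with minimum count 10, two-sided, Benjamini-Hochberg over 14346 genes, threshold 0.05). The script was tested on simulated data. At a biological coefficient of variation of 14.2%, the spread between libraries exceeded counting error. No 2 replicates agreed within sampling noise, with a lowest chi-square per degree of freedom of 10.31.

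Alternatives were DESeq2 size factors within edgeR, no filter, DESeq2 1.42.0, limma 3.58.1 on log2(FPKM + 1) or log2(FPKM + 0.1) for genes with a mean of at least 0.1 FPKM or without that filter, a replicate block, 1 surrogate variable (sva 3.50.0), leaving out each library, and leaving out CK2i 2 and 5. All 38 genes are accounted for. Values per library are given for those with adjusted p under 0.05 and for 13 genes set by the naming rule, namely Ctsb, Ctsd, Lamp1, Psap, Tfeb, Tfe3, Mcoln1, Atp6v0a1, Atp6v1a, Atp6v0c, Dmxl1, Dmxl2 and Wdr7. Of each further list at most the 6 smallest adjusted p under 0.05 are named. Ctsc, Asah1 and the ratios were added after their values were seen.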

Additional observations from a re-analysis of the deposited data

Results flagged for a closer look

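Atp6ap1 in the CK2i group was the 1 of 76 groups of 5 libraries, over the 38 genes, in which a library stood far from the others. CK2i 5 was at 117 CPM and the nearest CK2i library at 111, a gap that took 0.943 of the whole range of the group. Chance sets about 1 in 20 such groups apart.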

How the results depend on the processing

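Percentages in brackets give the share of all genes called higher in the same fit. All 12 genes passed with DESeq2 size factors (6.55%) and with DESeq2, which called 4 more (11.9%). Without the filter on low counts 9 passed (2.84%). With limma 8 passed on log2(FPKM + 1) (2.7%), 9 on log2(FPKM + 0.1) (2.95%) and 5 without a filter (0.744%). With 1 surrogate variable 1 passed (0.223%) and without CK2i 2 and 5 2 passed (0.501%). Leaving out 1 library gave 5 to 16 (1.26% to 11.9%). No fit called any of the 38 lower. The surrogate variable correlated with the groups at 0.65. The cause of the changes in these counts, with the surrogate variable or in the other fits, was not tested. Over all genes and in either direction, 1892 calls became 3176 with DESeq2 and 863, 916 and 360 with the 3 limma fits. They became 61 with the surrogate variable, 175 without CK2i 2 and 5, and 446 to 3198 without 1 library. Replicate numbers gave no clear sign of paired samples, although 5 libraries per group cannot exclude a pairing. Same-numbered libraries correlated at -0.159 to 0.228, and 1 of 5 vehicle libraries correlated best with its own number. With the numbers as a replicate block 8 of the 38 genes passed (3.19%), and 1139 genes in all passed in either direction.

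A sign changed in 12 genes, none of which passed, at no more than 0.21. With the surrogate variable the log2 values were -0.02 for Ctsb, 0.01 for Ctsd, -0.21 for Ctsh, -0.06 for Hexa, 0.03 for Gaa, 0.00 for Glb1, -0.08 for Npc2, -0.09 for Psap, -0.04 for Lamp1, -0.02 for Atp6v0d1 and -0.12 for Dmxl1. Without CK2i 2 and 5 they were -0.02 for Hexa, 0.00 for Npc2, -0.02 for Lamp1, -0.01 for Atp6v0d1 and -0.07 for Dmxl1. Atp6v0a1 was at 0.05 in the 3 limma fits. Over the fits without 1 library, Glb1 ran from -0.04 to 0.01, Lamp1 from -0.01 to 0.05, Atp6v0d1 from 0.00 to 0.04 and Dmxl1 from 0.00 to 0.09. Leaving out CK2i 2 gave 0.00 for Glb1 and for Dmxl1, CK2i 4 gave 0.01 for Glb1, and CK2i 5 gave -0.01 for Lamp1 and 0.00 for Atp6v0d1. Counts of 258 or more per library left the spread between libraries as the limit for these 38 genes.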
